A study of Homo sapiens with 21 samples.

Results

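Intronic S9.6 peaks are the peaks whose summit lay inside a gene span of the deposited count table, in no exon, not within 1000 bp of a gene start and not from 1000 bp before to 5000 bp after a gene end. They numbered 124997 of the 253906 peaks on chromosomes 1 to 22 and X in 6 libraries, and introns outside those margins spanned 1176 Mb. The study depleted RNF8, a ubiquitin ligase of the DNA break response, in MDA-MB-436 cells, an established BRCA1-mutant breast cancer line of basal type. DNA-RNA hybrids were pulled from sonicated chromatin with the S9.6 antibody and sequenced (DRIP-seq), and messenger RNA was sequenced in parallel. All groups carried a doxycycline-inducible lentiviral hairpin, and the labels do not say whether or for how long doxycycline was given. The DRIP-seq groups were the hairpin against RNF8 (shRNF8) with RNase treatment (4 libraries) and without it (4 libraries), and a scrambled hairpin (shScr) with RNase treatment (2 libraries) and without it (2 libraries). RNA-seq had 3 shRNF8 and 3 shScr libraries. A single RNF8 hairpin was used, the RNase is named in the labels only by a code, and input libraries were not analysed here. The labels do not state that replicates came from separate cultures, and the spread that each p-value is set against may therefore be technical.

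An R-loop is a hybrid of nascent RNA with its DNA template that leaves the other DNA strand single. R-loops are best known at promoters, where GC-rich sequence and pausing favour them, and at terminators, where the exonuclease XRN2 acts. Introns make up most of the transcribed genome. Hybrids inside them depend on transcription through the gene body, and introns can also hold alternative gene starts and the starts of other genes.

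The deposited files give the position and values of each peak but no bases. Sequence was therefore read where an intronic region called in all 6 libraries covered a gene start of the RefSeq annotation (GRCh38.p14) that the deposited gene models place inside an intron. With 1 of the chromosomes left out, there were 53 such starts, and in 26 of them the strongest summit lay within 1000 bp of the start. From the 6 of these with the highest mean fold enrichment, 4 sequences are shown, picked after the values were seen: all 3 that are further starts of the host itself, and the strongest on the opposite strand. They make visible what kind of DNA recurrent intronic peaks can cover. Each is the 250 bases before the start, written 5′ to 3′ on the strand of the named gene, and capitals mark runs of at least 4 G or at least 4 C.
DGKH, chr13:42048398-42048647, plus strand: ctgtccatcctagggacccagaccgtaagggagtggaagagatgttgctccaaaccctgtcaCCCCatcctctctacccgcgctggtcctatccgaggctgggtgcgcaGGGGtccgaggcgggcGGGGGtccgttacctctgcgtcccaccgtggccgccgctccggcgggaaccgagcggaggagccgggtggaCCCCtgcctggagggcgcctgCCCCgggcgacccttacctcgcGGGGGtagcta
ATXN7, chr3:63911862-63912111, plus strand: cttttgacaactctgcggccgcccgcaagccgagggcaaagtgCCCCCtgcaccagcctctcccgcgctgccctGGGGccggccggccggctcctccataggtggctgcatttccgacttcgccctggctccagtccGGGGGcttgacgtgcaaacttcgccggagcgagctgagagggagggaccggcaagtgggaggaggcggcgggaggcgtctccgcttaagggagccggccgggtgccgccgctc
HLCS, chr21:36966670-36966919, minus strand: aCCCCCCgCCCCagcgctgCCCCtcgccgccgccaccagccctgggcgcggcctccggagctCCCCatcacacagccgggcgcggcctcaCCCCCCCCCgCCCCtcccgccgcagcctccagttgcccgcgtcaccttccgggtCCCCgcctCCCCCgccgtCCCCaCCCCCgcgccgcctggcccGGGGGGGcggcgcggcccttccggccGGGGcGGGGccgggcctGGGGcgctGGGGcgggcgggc
LOC124904106 in KDM6B, chr17:7845529-7845778, minus strand: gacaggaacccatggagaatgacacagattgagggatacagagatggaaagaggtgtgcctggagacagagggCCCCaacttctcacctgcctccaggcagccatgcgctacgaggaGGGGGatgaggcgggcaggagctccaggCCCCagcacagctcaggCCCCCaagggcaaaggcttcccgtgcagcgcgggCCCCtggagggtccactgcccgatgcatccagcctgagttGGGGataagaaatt
The first 3 are further starts of the host gene itself, while LOC124904106 is annotated on the strand opposite to its host KDM6B, a demethylase of histone H3 lysine 27. DGKH encodes a diacylglycerol kinase, ATXN7 a subunit of the SAGA histone acetyltransferase complex, and HLCS the ligase that attaches biotin to carboxylases. HLCS had 5 runs of G and 10 runs of C in its 250 bases, and ATXN7 had 2 runs of G and 1 run of C. The HLCS region had a fold enrichment over local background of 17.1, 7.70, 8.90 and 10.9 in the shRNF8 libraries, against 14.9 and 8.44 in the shScr libraries. The ATXN7 region had 12.2, 8.39, 18.1 and 15.04 in the shRNF8 libraries, against 16.1 and 17.4 in the shScr libraries. In both regions the ranges of the hairpins overlapped.

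Intronic peaks were the most frequent class in every library. They numbered 15058, 15309, 27627 and 26654 in shRNF8 replicates 1 to 4, against 22577 and 17772 in shScr replicates 1 and 2. As a share of a library's peaks they made up 46.5%, 44.9%, 54.2% and 54.9% in shRNF8, against 45.8% and 46.0% in shScr. shRNF8 replicates 1 and 2 had the fewest intronic peaks and replicates 3 and 4 the most, with both shScr libraries between them.

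**Figure D1:**
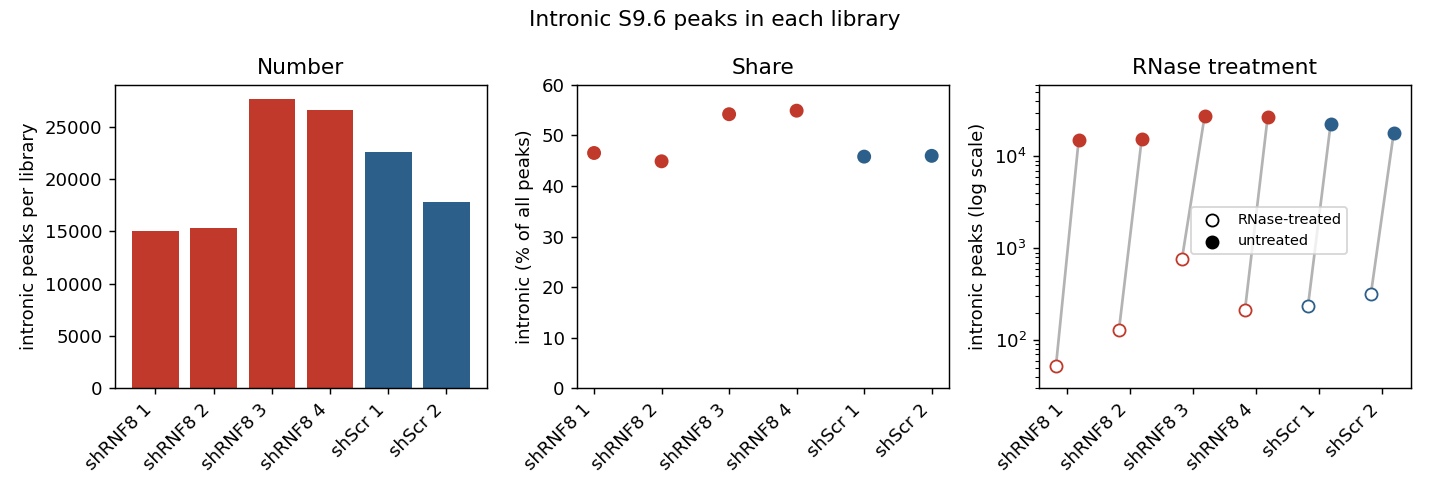
Intronic S9.6 peaks per library (shRNF8 red, shScr blue): the number of peaks (bars, left), their percent of the library's peaks (points, middle) and the number with RNase treatment (open points) beside the untreated library of the same hairpin and number (filled points, log axis, right). shRNF8 replicates 3 and 4 have 27627 and 26654 intronic peaks, 54.2% and 54.9% of their peaks, and no RNase-treated library has more than 769.

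shRNF8 replicates 3 and 4 stood apart from replicates 1 and 2 in other ways too. The peak names inside their lists carry the stems of replicates 1 and 2, although the peaks differ. Of their intronic peaks, 26.1% to 29.2% overlapped a peak of replicate 1 or of replicate 2, and 64.4% and 70.5% overlapped the other of the pair. Their overlap with a peak of an shScr library was 31.8% to 38.1%. Of the intronic peaks of replicates 1 and 2, 76.5% to 82.4% overlapped a peak of replicate 3 or of replicate 4. Those of replicate 1 overlapped replicate 2 in 54.9%, and shScr 1 and 2 in 60.6% and 55.4%. Those of replicate 2 overlapped replicate 1 in 60.9%, and shScr 1 and 2 in 68.5% and 61.2%. The sources used here do not say what the shared stems mean, and the n of 4 and 6 and every exact test over libraries count these lists as separate libraries. The lowest local background that at least 5 peaks shared to within 1%, a stand-in for depth, was 0.698, 0.948, 1.36 and 1.48 reads in shRNF8 and 1.22 and 0.840 reads in shScr. RNA-seq libraries held 18121181 to 20006954 counts. The basal or mesenchymal markers VIM and CD44 had a mean of 1172 and 212 TPM, a level scaled by transcript length and library total, against 0.0569 TPM for the luminal marker CDH1 and 0 TPM for the stromal markers DCN and LUM. Of the other luminal markers, KRT8 and KRT18 had 723 and 570 TPM.

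No difference between hairpins in the number, share or strength of intronic peaks was detected beyond the spread between libraries. The mean number was 21162 ± 6916 in shRNF8 (SD, n = 4) and 20174.5 ± 3398 in shScr (SD, n = 2), a difference of 987.5 peaks (exact permutation test, two-sided, p = 0.733, adjusted p = 0.856 over 7 comparisons). The mean share was 50.1% ± 5.16 in shRNF8 and 45.9% ± 0.109 in shScr, a difference of 4.24 percentage points (exact permutation test, two-sided, p = 0.333, adjusted p = 0.778). The 15 splits of 4 against 2 libraries cannot give a p below 0.0667. The difference in number changed sign without shRNF8 replicate 3 (-1167.5), without shRNF8 replicate 4 (-843.2) and without shScr replicate 2 (-1415). Without shRNF8 replicates 3 and 4 the difference in share was -0.18 points, and without replicates 1 and 2 it was 8.66 points, so that the sign rests on which pair is kept. With peaks rescaled to the depth of the shallowest library, the share was 46.5%, 44.5%, 52.6% and 52.4% in shRNF8, against 44.7% and 45.7% in shScr.

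The libraries with the most intronic peaks had the weakest ones on median. The median fold enrichment of intronic peaks was 5.30, 5.0, 4.62 and 4.43 in shRNF8, against 4.92 and 5.12 in shScr. Replicates 3 and 4 had the lowest medians and replicate 1 the highest. The mean log2 difference between hairpins was -0.06 (exact permutation test, two-sided, p = 0.6, adjusted p = 0.856). Median width was 532, 496, 610 and 614 bp in shRNF8, against 471 and 541 bp in shScr, with a mean log2 difference of 0.15 (exact permutation test, two-sided, p = 0.267, adjusted p = 0.778).

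Compared with peaks at gene starts, intronic peaks were weaker, narrower and sparser in each of the 6 libraries. Intronic minus start peaks, the median log2 fold enrichment differed by a mean of -0.15 and the median log2 width by -0.53 (exact sign-flip test over libraries, two-sided, p = 0.03125 for each, the smallest that 6 libraries allow, adjusted p = 0.03125 over 18 comparisons). Per megabase of each class's sequence, introns held 12.8, 13.0, 23.5 and 22.7 peaks in shRNF8 and 19.2 and 15.1 in shScr, while sequence within 1000 bp of gene starts held 107 to 139. The log2 difference in density was -2.73 from gene starts, -1.79 from gene ends and -2.30 from internal exons (exact sign-flip test, p = 0.03125 for each). Intergenic peaks were the nearest class: intronic peaks exceeded them by 0.02 in median log2 fold enrichment and by 0.15 in median log2 width, with the same sign in 6 of 6 libraries (exact sign-flip test, p = 0.03125 for each).

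Few intronic peaks were called after RNase treatment. The RNase-treated libraries held 53, 130, 769 and 213 intronic peaks in shRNF8 and 234 and 321 in shScr, against 15058, 15309, 27627 and 26654 in untreated shRNF8 and 22577 and 17772 in untreated shScr, a mean log2 difference from the untreated libraries of -6.59 (exact permutation of labels within each hairpin, two-sided, p = 0.00476, the smallest that 420 arrangements allow). The RNase-treated libraries were also shallower by the background measure, at 0.230 to 0.706 reads, and with all 12 libraries rescaled to the lowest of these the log2 difference was -4.56. Of the untreated intronic peaks, 0.239%, 0.562%, 1.03% and 0.330% in shRNF8 and 0.625% and 0.715% in shScr overlapped a peak of the RNase-treated library of the same hairpin and number. The widest Wilson 95% interval of these shares, that of shScr replicate 2, ran from 0.601% to 0.850%, and covers counting error only. The shares of the remaining peaks were higher in 6 of 6 libraries, between 0.457% and 1.496%, a mean difference for intronic minus other peaks of -0.306 percentage points (exact sign-flip test, two-sided, p = 0.03125). This difference lost its call with wider margins at gene ends (-0.156 points, p = 0.0938 by the exact sign-flip test) and after depth matching (-0.0694 points, p = 0.25).

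Introns of highly expressed genes held the densest peaks. Introns of hosts whose mean level was 0 TPM held 0.433 ± 0.186 peaks per Mb (mean ± SD, n = 6 libraries), those of hosts between 1 and 10 TPM held 8.59 ± 2.79, those between 10 and 100 TPM held 38.0 ± 10.7, and those above 100 TPM held 91.3 ± 18. The density above 100 TPM was 68.7, 70.4, 105 and 105 peaks per Mb in shRNF8, against 108 and 89.9 in shScr. In the band from 1 to 10 TPM it was 5.95, 6.09, 12.1 and 11.7 in shRNF8, against 9.04 and 6.70 in shScr. The log2 ratio of the highest band to the band from 1 to 10 TPM was 3.45, positive in 6 of 6 libraries (exact sign-flip test, two-sided, p = 0.03125, adjusted p = 0.03125). That ratio was 3.34 ± 0.222 in shRNF8 and 3.66 ± 0.121 in shScr, a log2 difference of -0.32 (exact permutation test, two-sided, p = 0.133, adjusted p = 0.778). TPM here comes from the mean of the 6 RNA-seq libraries, so it measures steady messenger RNA and not transcription. Host level was not separated from host span. The 1540 hosts above 100 TPM had 39.4 Mb of intron, and the 3486 between 1 and 10 TPM had 291 Mb.

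Across expressed hosts, those of at least 10 TPM, peak density was lower farther from the gene start. The bands pool the introns of all such hosts, and intron beyond 100 kb comes only from hosts longer than that. Distance from the start and host span were therefore not separated. Density averaged 76.9 ± 14.1 peaks per Mb from 2 to 5 kb after the start, 44.7 ± 11.97 from 20 to 50 kb and 24.5 ± 8.16 beyond 100 kb (mean ± SD, n = 6). The log2 ratio of the nearest of these bands to the farthest was 1.70 (exact sign-flip test, two-sided, p = 0.03125). Shorter hosts were denser than longer ones: expressed hosts spanning up to 10 kb held 140 ± 13.1 intronic peaks per Mb, and those above 300 kb held 14.1 ± 5.95, a log2 ratio of 3.42 (exact sign-flip test, two-sided, p = 0.03125), which was 2.38 among peaks that touch no exon. The log2 ratio of hosts above 300 kb to hosts up to 10 kb was -3.34 ± 0.726 in shRNF8 and -3.58 ± 0.177 in shScr, a difference of 0.24 (exact permutation test, two-sided, p = 0.733, adjusted p = 0.856).

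**Figure D2:**
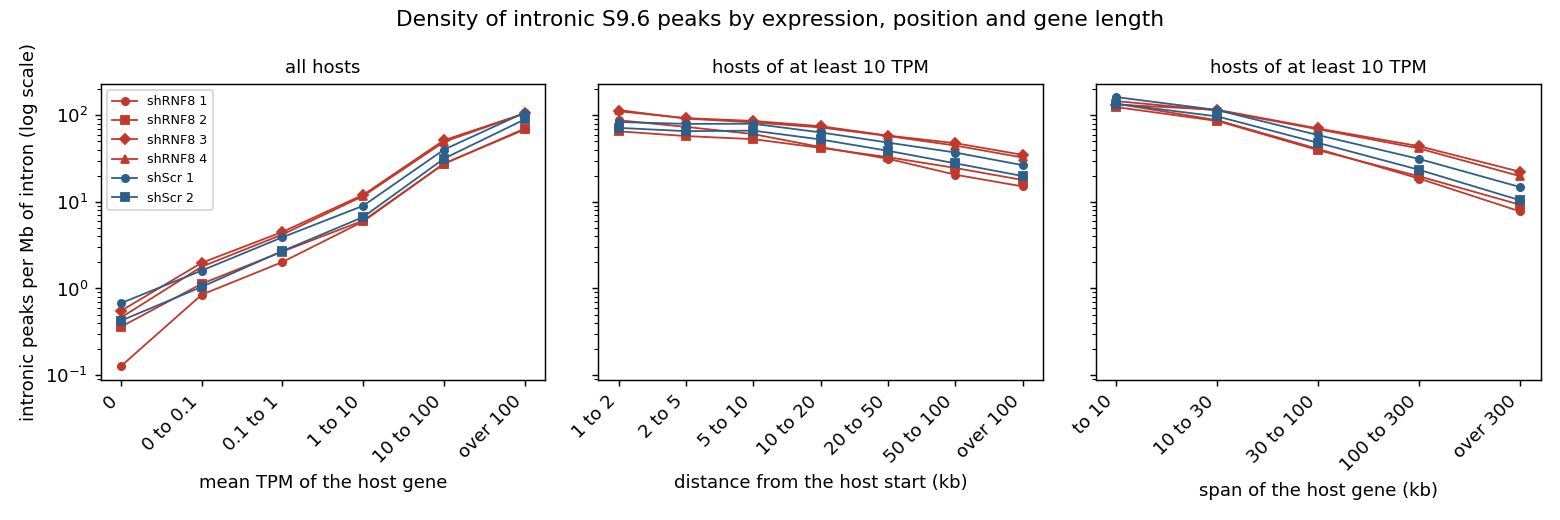
Intronic peaks per Mb of intron (log axis) in each library (shRNF8 red, shScr blue) by mean TPM of the host gene (left), and in hosts of at least 10 TPM by distance from the host start (middle) and by host span (right). Density climbs from a mean of 0.433 to 91.3 peaks per Mb across expression bands, falls from band to band of host span in every library, and is lower beyond 100 kb from the start than from 2 to 5 kb in every library, though not at every step between bands in shScr.

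Density also differed with position inside the intron. These bands pool hosts too, and sequence beyond 10 kb from an exon lies only in long introns, so host span was not separated here either. In expressed hosts, summits under 250 bp from an exon had a density of 102 ± 12.2 peaks per Mb, those from 1 to 2 kb 50.3 ± 13.7, and those beyond 10 kb 18.4 ± 8.28. The log2 ratio of the first band to the last was 2.59 (exact sign-flip test, two-sided, p = 0.03125), but it was -0.74 for peaks that touch no exon along their whole length, which by construction can hardly have a summit so near one. The log2 ratio of the 1 to 2 kb band to the band beyond 10 kb was 1.53, and 1.42 for peaks that touch no exon. Between 5 and 20 kb from the start, first introns held 45.9 ± 15.1 peaks per Mb and later introns 72.8 ± 13.4, a log2 ratio of -0.71 (exact sign-flip test, two-sided, p = 0.03125) that lost its call among peaks touching no exon (-0.075, exact sign-flip p = 0.281). Chromosome 19, known for its high gene density, had the densest expressed introns with 182 peaks per Mb (164 to 208 over libraries), and chromosome 18 the sparsest with 17.4 (8.78 to 26.6), given as a description.

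Most intronic regions did not recur as intronic peaks. Peaks merged across libraries where they shared at least 1 bp gave 47059 intronic regions covering 64.5 Mb, of which 24499 (52.1%) had an intronic peak in 1 library only. The libraries of shRNF8 replicates 3 and 4 alone accounted for 7917 and 6913 of these single regions, and a further 4777 were shared by those 2 and by no other library. An intronic peak stood in each of the 6 libraries in 2538 regions, or 5.39%, while 10.9% of the 73564 regions of all classes had a peak in all 6. The rules are unlike: the first share counts only peaks with an intronic summit, and the second counts peaks of any class. A library whose peak over an intronic region has its summit elsewhere is not counted for that region. Over the 4 libraries left, the count was 3822 without shRNF8 replicates 3 and 4 and 4549 without replicates 1 and 2. Recurrent regions were stronger and wider: the median of the mean fold enrichment was 6.78 and the median width 4808 bp in regions of 6 libraries, against 4.18 and 371 bp in regions of 1 library, and merging itself widens regions that more libraries share. Regions of all 6 libraries were over 10 kb wide in 512 cases, and 880 of them (34.7%) touched no exon along their length, against 81.9% of the regions of 1 library. Within an intronic region of all 6 libraries the summit is thus in an intron by rule, while its body usually crossed exons.

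**Figure D3:**
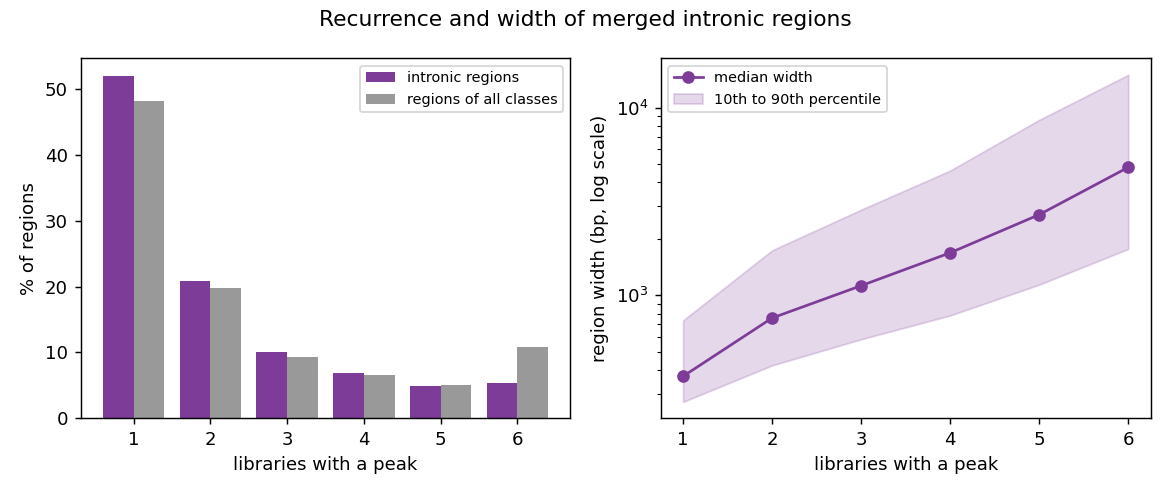
Left, percent of merged intronic regions (purple) and of merged regions of all classes (grey) by the number of the 6 libraries with a peak. Purple counts intronic peaks only, and grey counts peaks of any class. Right, width of intronic regions (line, median; band, 10th to 90th percentile; log axis), with medians of 371 bp in regions of 1 library and 4808 bp in regions of 6.

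RNase-resistant signal was more often found at the recurrent regions. A peak of at least 1 RNase-treated library lay over 4.96% of the regions of 6 libraries and over 0.661% of the regions of 1 library, which are also narrower. Of the 19 intronic regions plotted by library for their fold enrichment, 0 had a peak in any RNase-treated library.

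With all 6 libraries, presence of a region followed the hairpin rarely. An intronic peak in all 4 shRNF8 libraries with no peak of any class in shScr was found for 274 intronic regions (0.582%), beside 0.73% of all regions. The converse, a peak in both shScr and in no shRNF8 library, was found for 739 (1.57%), beside 2.49% of all regions. The first rule asks for 4 libraries and the second for 2, so the counts cannot be set against each other. The shares over all regions, here and below, count peaks of any class and so follow an unlike rule. The count of 274 was 363 to 807 with 1 library left out. It was 882 of 35177 regions without shRNF8 replicates 3 and 4, and 5776 of 44197 without replicates 1 and 2. Each such rule asks fewer libraries to agree, which by itself can raise the count. The matching shares over all regions were not computed. Among the 2538 regions of all 6 libraries, the fold enrichment of every shRNF8 library lay above both shScr libraries in 344 and below both in 247, or 13.6% and 9.73%, beside 11.9% and 12.8% of all regions called in all 6.

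The strongest recurrent region lay in TPPP, which encodes a tubulin polymerisation-promoting protein. It spanned chr5:668386-678314 (hg38), with its summit in intron 2 of 3, and had a fold enrichment of 64.02, 47.2, 67.5 and 34.2 in shRNF8, against 26.0 and 30.8 in shScr. Every shRNF8 library was above both shScr libraries, and TPPP messenger RNA was at 5.70 ± 0.678 CPM in shRNF8 and 6.13 ± 1.07 CPM in shScr (SD, n = 3 each, edgeR's quasi-likelihood test, adjusted p = 0.796). MAGEA4, a cancer-testis antigen gene with 1217 TPM, followed with 44.5, 27.4, 34.0 and 29.4 in shRNF8, against 34.1 and 34.5 in shScr. Its region spanned chrX:151919332-151927818 with the summit in intron 4 of 5, and the hairpins overlapped.

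The regions in KLC2, MNT, KDM6B and GLI4 were wider than their host genes. The KLC2 region, in a gene of a kinesin light chain, was 37565 bp wide and had 47.0, 26.0, 26.4 and 22.5 in shRNF8, against 19.5 and 23.5 in shScr. The region of MNT, a repressor that pairs with MAX, was 40701 bp wide and had 25.6, 20.8, 25.2 and 20.6 in shRNF8, against 33.4 and 27.4 in shScr, so that all shRNF8 libraries were below both shScr libraries. The KDM6B region was 25171 bp wide and had 28.4, 23.6, 24.5 and 17.7 in shRNF8, against 29.8 and 28.04 in shScr. The hairpins overlapped in KLC2 and in KDM6B. FAM65A had 17.1, 16.1, 43.6 and 37.1 in shRNF8, against 17.9 and 19.6 in shScr, a split between shRNF8 replicates and not between hairpins. GLI4, a zinc finger gene, had 46.3, 20.5, 26.1 and 21.7 in shRNF8, against 18.2 and 20.1 in shScr, with every shRNF8 library above both.

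Of the 8 strongest recurrent regions, that of FRMD4A alone touched no exon. FRMD4A encodes a scaffold of cell polarity complexes. Its region at chr10:14184358-14188140 lay 144527 bp from the gene start in intron 2, which is 471145 bp long. It had 49.9, 25.2, 21.2 and 18.2 in shRNF8, against 19.2 and 25.6 in shScr. shRNF8 replicate 1 was far above the others and the hairpins overlapped. The next 5 exon-free regions by mean fold enrichment, a list chosen after the values were seen, lay in PCGF3 (2 regions), RPS24, ZNF787 and SBNO2.

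PCGF3 encodes a Polycomb ring finger protein. The region in its first intron had 16.8, 16.8, 16.6 and 16.3 in shRNF8, against 13.3 and 14.0 in shScr, with no overlap between hairpins. The one in intron 8 had 11.8, 14.6, 15.2 and 16.9 in shRNF8, against 12.6 and 17.7 in shScr, where the hairpins overlapped. Of the 7 recurrent regions of SBNO2, a transcriptional coregulator gene, the exon-free one listed here had means of 16.3 in shRNF8 and 5.29 in shScr. This 778 bp region at chr19:1164902-1165679 in intron 1 had 14.3, 13.7, 18.2 and 19.0 in shRNF8, against 5.03 and 5.56 in shScr. A stronger SBNO2 region nearby, at chr19:1166213-1188224, had 32.1, 11.4, 17.8 and 21.8 in shRNF8, against 15.5 and 12.4 in shScr. The one at chr19:1161535-1164584 had 12.3, 11.9, 12.7 and 8.66 in shRNF8, against 6.07 and 10.4 in shScr. The hairpins overlapped in both of these neighbours. RPS24, a ribosomal protein gene, had 36.4, 10.5, 13.5 and 9.02 in shRNF8, against 6.999 and 8.15 in shScr, and ZNF787 had 14.7, 10.2, 14.8 and 9.74 in shRNF8, against 20.1 and 13.2 in shScr. With 15 splits no single region can reach a p below 0.0667, and these values are a description.

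**Figure D4:**
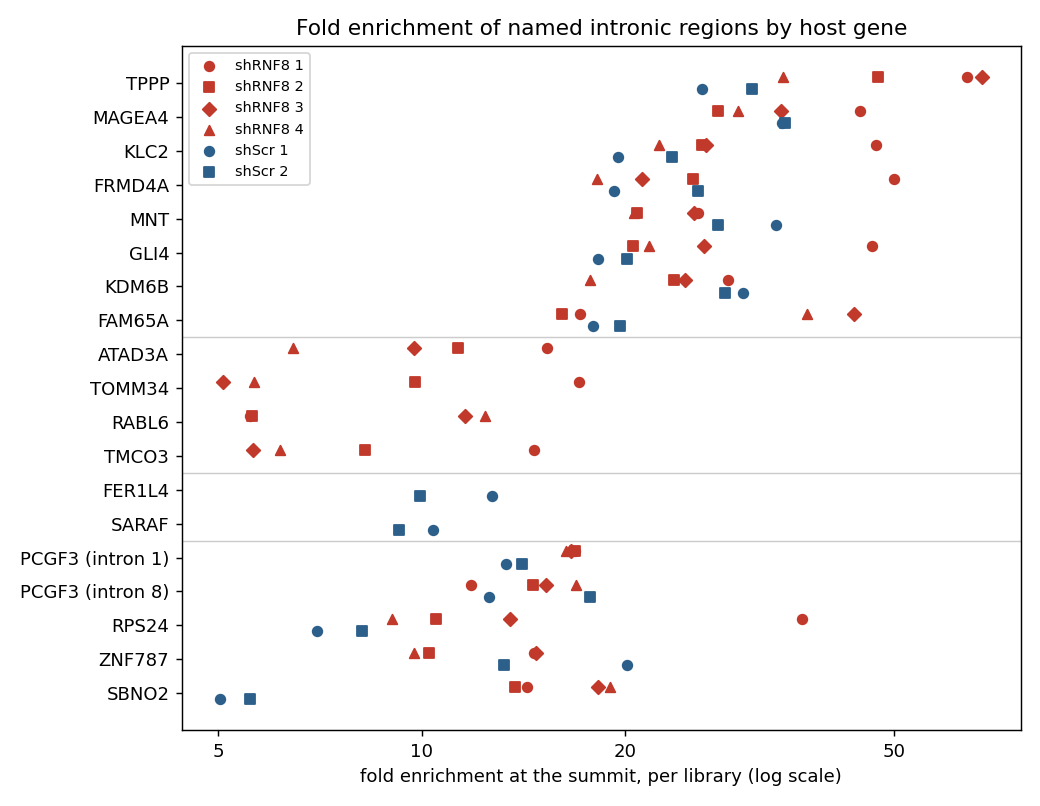
Fold enrichment over local background (log axis) in each library (shRNF8 red, shScr blue) for the 8 strongest regions of all 6 libraries, the 4 present only in shRNF8, the 2 present only in shScr and 5 exon-free regions, separated by lines from top to bottom. The plotted region of SBNO2 has shRNF8 values of 13.7 to 19.0 and shScr values of 5.03 and 5.56, while MAGEA4 and FRMD4A overlap between hairpins.

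The 4 strongest regions seen only with shRNF8 lay in ATAD3A, TOMM34, RABL6 and TMCO3, at 107, 127, 128 and 74.2 TPM. Such levels were not particular to them. SARAF, host of a region seen only with shScr, was at 84.9 TPM, and FER1L4, the other such host named here, at 2.63 TPM. ATAD3A, a mitochondrial AAA ATPase gene, had a 484 bp region in intron 6 at chr1:1519707-1520190 with 15.3, 11.3, 9.74 and 6.46 in the shRNF8 libraries. ATAD3A has near-identical neighbouring copies, among which reads may be split. TOMM34, which encodes a cytosolic partner of mitochondrial protein import, had 17.1, 9.75, 5.08 and 5.65 in intron 3. RABL6, a GTPase-like gene, had 5.58, 5.60, 11.6 and 12.4 in intron 1, and TMCO3 had 14.7, 8.24, 5.63 and 6.17 in intron 7. ATAD3A had 7, 9, 7 and 9 intronic peaks in shRNF8, against 3 and 2 in shScr. It was named for a region seen only with shRNF8, so part of this difference follows from the choice. The share of all hosts whose counts separate likewise was not computed. ATAD3A messenger RNA averaged 124 ± 1.97 CPM in shRNF8 and 120 ± 28.1 CPM in shScr (SD, n = 3 each, edgeR's quasi-likelihood test, adjusted p = 0.860).

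The 2 strongest regions seen only with shScr lay in FER1L4, a transcribed pseudogene, with 12.7 and 9.93 in intron 2, and in SARAF, a regulator of store-operated calcium entry, with 10.4 and 9.24 in intron 1. No shRNF8 library had a peak of any class over either. The FER1L4 summit lay 1138 bp from the gene start, close to the margin of 1000 bp. FER1L4 messenger RNA was at 3.71 ± 0.644 CPM in shRNF8 and 10.4 ± 6.76 CPM in shScr (edgeR's quasi-likelihood test, adjusted p = 0.218). That of SARAF was at 72.1 ± 7.41 CPM in shRNF8 and 76.5 ± 5.09 CPM in shScr (same test, adjusted p = 0.673). RABL6 messenger RNA was lower with shRNF8, at 173 ± 17.1 CPM in shRNF8 and 230 ± 8.79 CPM in shScr (SD, n = 3 each). Its log2 fold change was -0.41 with an SE of 0.0948 (edgeR's quasi-likelihood test, adjusted p = 0.0473). It was the only one of the 33 hosts named for their regions and tested by RNA-seq that passed the threshold. Of all 5398 tested hosts of a region found in 2 or more libraries, 3.08% passed it.

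Intronic peaks were spread over many host genes. Of 18619 genes with intron outside the margins, 8209 had an intronic peak in at least 1 library, 2231 in each of the 6, and 1411 (7.58%) held a region of all 6. Hosts of such regions had a median of 39.7 TPM, against 0.199 TPM for genes with no intronic peak. Among protein-coding genes 8.86% held such a region, and among long noncoding RNA genes 0.799%, which had a median level of 0.0194 TPM. The 100 genes with the most carried 26.8% of the 2447 regions that had 1 host.

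Hosts with many recurrent regions included long, expressed genes. RASA3, a Ras GTPase-activating protein gene of 155 kb, held 17 regions. MAD1L1 of the spindle checkpoint, INPP5A, an inositol phosphatase gene, and SEPT9, a septin gene, held 15 each. ANKRD11 and ZMIZ1, genes of transcriptional coregulators, held 12 each, while PPP2R2C of protein phosphatase 2A, COL5A1 of type V collagen and FBRSL1 held 11 each. RASA3 had 48, 56, 42 and 48 intronic peaks in shRNF8, against 51 and 31 in shScr, and MAD1L1 had 64, 75, 129 and 111 in shRNF8, against 73 and 55 in shScr. Both overlapped between hairpins, and the 4 shRNF8 libraries of MAD1L1 split as they did in the total count.

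Per megabase of intron, compact genes led. C7orf26 held 4 recurrent regions in 13.0 kb of intron, or 307 per Mb. SLC19A1, the reduced folate carrier gene, held 5 (235 per Mb), MEIS3, a homeobox gene, 3 (228 per Mb), IMPDH1 of guanine nucleotide synthesis 3 (213 per Mb) and CYP4V2, a fatty acid hydroxylase gene, 3 (179 per Mb). A rate from 3 to 5 regions in so little sequence has a wide counting error.

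Gene groups differed in how often they held a region of all 6 libraries, beside 7.58% of all genes with intron and 15.4% of those of at least 10 TPM. Of 19 focal adhesion and actin genes, 11 (57.9%) held one, with a median level of 169 TPM and a median span of 122 kb. By number of intronic regions of any kind, TNS3, a tensin gene, led with 111, followed by PTK2 (focal adhesion kinase) with 69, DOCK1, a RAC activator gene, with 41 and ACTN1 of actin cross-linking with 40. TNS3 had 10, 23, 74 and 68 intronic peaks in shRNF8, against 42 and 31 in shScr, and 2 of its regions recurred in all 6 libraries. PTK2 had 13, 17, 44 and 45 in shRNF8, against 34 and 35 in shScr, and ACTN1 had 19, 24, 27 and 38 in shRNF8, against 35 and 25 in shScr. The hairpins overlapped in all 3 genes, and PTK2 and ACTN1 held 4 recurrent regions each while DOCK1 held 0.

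Of 20 chromatin and transcription regulators, 7 (35.0%) held a recurrent region. Among them, ANKRD11 held 12, SMARCA4, an ATPase of chromatin remodelling, held 5, and SMAD3, a transcription factor gene of TGF-beta signalling, held 4. Of 20 receptor and kinase signalling genes, 4 (20%) held one. The tyrosine kinase gene SRC held 4 recurrent regions, RAPGEF1, a RAP1 activator gene, and ABL1, another tyrosine kinase gene, held 1 each, and the receptor gene EGFR held 0 of its 34 regions. RAPGEF1 had 6, 5, 30 and 26 intronic peaks in shRNF8, against 13 and 10 in shScr, again with both shScr libraries between the pairs of shRNF8 replicates.

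Of 29 R-loop and termination factors, 4 (13.8%) held a recurrent region. Among them were TOP3B, a topoisomerase gene, with 2, and DHX9, a helicase gene that acts on hybrids, and POLR2A, the largest RNA polymerase II subunit gene, with 1 each. DHX9 had 2, 3, 14 and 8 intronic peaks in shRNF8, against 4 and 6 in shScr, and the hairpins overlapped. Of 24 common fragile site genes, 1 (4.17%), CTNNA1 at 171 TPM, held one. The median level of that list was 0.866 TPM and its median span 1094 kb. FOXP1, a transcription factor gene of 629 kb at 6.67 TPM, had 1, 3, 3 and 5 intronic peaks in shRNF8, against 0 and 0 in shScr. The share of all hosts whose counts separate like those of FOXP1 was not computed. EXOC4 of the exocyst had 0, 0, 2 and 1 in shRNF8, against 0 and 1 in shScr. FHIT, WWOX, MACROD2 and IMMP2L, named after their values were seen, had 0 intronic peaks in each of the 6 libraries. These lists differ in expression and length, whose part in the counts was not tested.

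Gene starts that RefSeq places inside these introns were covered by peaks more often than the introns as a whole. Of 3390 RefSeq starts that fell in the intronic space, on 22 chromosomes, 1171 lay in expressed hosts. An intronic peak covered 14.2%, 12.1%, 24.4% and 22.2% of these in shRNF8 and 15.6% and 13.1% in shScr. Peaks covered 2.81%, 2.44%, 6.94% and 6.68% of the intron of expressed hosts on the same chromosomes in shRNF8 and 3.39% and 3.07% in shScr. The mean difference, starts minus intron, was 12.7 percentage points (exact sign-flip test, two-sided, p = 0.03125, adjusted p = 0.03125). Summits within 1000 bp of such a start were nonetheless few, between 1.36% and 2.01% of a library's intronic peaks on these chromosomes.

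Starts under recurrent peaks were GC-rich. In expressed hosts the median GC content of the 300 bases from 250 before to 50 after the start was 67.0% for the 47 starts in a peak of all 6 libraries, 61.7% for the 372 in a peak of 1 to 5 libraries and 47.0% for the 752 in none, given as a description. It was 58.7% over all 34789 RefSeq starts. Starts that share a region, as in TNK2, were counted separately. Alternative starts of the host itself made up 61.7%, 53.0% and 39.9% of these sets. A run of GGGG or CCCC, searched as both words so as to cover both strands, was in 100% of the first set, 95.97% of the second and 79.1% of the third, beside 89.7% of all 34789 RefSeq starts. The 300 bases of DGKH, ATXN7, HLCS and LOC124904106 had a GC content of 71.3%, 73.0%, 83.7% and 60.7%. The other 2 of the 6 starts with the highest mean fold enrichment, LOC124905115 and LOC124904609, had 66.0% and 57.7%.

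Messenger RNA of host genes was compared to ask whether hosts changed with RNF8 depletion. The target itself fell to 9.33, 9.99 and 7.94 CPM in shRNF8, against 28.9, 29.1 and 28.003 CPM in shScr. RNF8 thus had a log2 fold change of -1.66 with a standard error (SE) of 0.125 (edgeR's quasi-likelihood test, Benjamini-Hochberg adjusted p = 1.65e-04). In bulk libraries, fewer cells with a transcript and less RNA per cell cannot be told apart. Of 14018 genes tested 2.54% were called (0.97% higher and 1.57% lower with shRNF8). Of 5398 tested hosts of an intronic region found in 2 or more libraries, 166 (3.08%) were called, 32 higher (0.593%) and 134 lower (2.48%). Of 1379 tested hosts of a region of all 6 libraries, 7 were higher and 42 lower. Hosts were more highly expressed than genes at large, with a median log2 CPM of 5.68 against 4.73 for all genes. Between 30 and 100 CPM, 62 of 2081 hosts (2.98%) and 29 of 2117 other genes (1.37%) were lower with shRNF8, given as a description.

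These counts rest on single RNA-seq libraries. Without shScr replicate 1, 1711 of 5429 tested hosts (31.5%) were called, 657 higher (12.1%) and 1054 lower (19.4%). Over all 14259 genes tested in that run, 3865 (27.1%) were called, 12.8% higher and 14.3% lower. Leaving out any other RNA-seq library left 22 to 61 called hosts, among 46 to 132 called genes.

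With a mean of at least 5 CPM, the 5 lower hosts with the smallest p were PLCD3, TBC1D10B, SEPT6, PDGFA and RAB3B. PLCD3, a phospholipase C gene, had 76.5, 78.1 and 65.9 CPM in shRNF8, against 214, 196 and 193 CPM in shScr. The log2 fold change was -1.45 with an SE of 0.0969 (edgeR adjusted p = 1.11e-04). PLCD3 had 8, 8, 4 and 2 intronic peaks in shRNF8, against 3 and 2 in shScr, which overlapped. TBC1D10B, an activator of RAB GTPase hydrolysis (log2 fold change -1.18), SEPT6, a septin gene (-1.02), PDGFA, a growth factor gene (-0.86), and RAB3B, a GTPase of exocytosis (-0.86), followed, with edgeR adjusted p between 3.69e-04 and 2.18e-03. PDGFA had 4, 3, 6 and 9 intronic peaks in shRNF8, against 11 and 7 in shScr.

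At the same level, the 5 higher hosts with the smallest p were CD24, DMTN, TNS1, ZNF185 and DCBLD2. CD24, a surface glycoprotein gene, had 18.3, 21.8 and 21.8 CPM in shRNF8, against 6.13, 10.4 and 7.75 CPM in shScr. Its log2 fold change was 1.35 with an SE of 0.182 (edgeR adjusted p = 4.88e-03). DMTN, an actin-bundling protein gene, had 10.3, 9.43 and 9.84 CPM in shRNF8, against 5.51, 4.34 and 4.86 CPM in shScr. Its log2 fold change was 1.01 with an SE of 0.162 (edgeR adjusted p = 0.0107). DMTN had 0, 2, 12 and 12 intronic peaks in shRNF8, against 0 and 0 in shScr, so that they rested on shRNF8 replicates 3 and 4. TNS1, a tensin gene (log2 fold change 0.77), ZNF185 of the actin cytoskeleton (0.62) and DCBLD2, a membrane receptor gene (0.61), followed, with edgeR adjusted p between 4.92e-03 and 0.0116. CD24, DCBLD2, DMTN and TNS1 lost their call when at least 1 of the shRNF8 libraries was left out, with edgeR adjusted p up to 0.0805.

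Few members of the gene lists changed in messenger RNA by the same test. TNS1 rose and TNS3 fell among the 19 focal adhesion and actin genes, POLR2A rose and RNF8 fell among the 29 R-loop and termination factors, and CNTNAP2 rose among the 17 tested fragile site genes. Over all 14018 genes tested, 0.97% were called higher and 1.57% lower. Of the same genes, 2813 had an unadjusted edgeR p under 0.05, and 859 (6.13%) were called by DESeq2. DESeq2 called DDX21, SUPT16H, POLR2A and RNF8 among the R-loop factors, TNS1, TNS3 and CAPN2 among the focal adhesion genes, and CNTNAP2 among the fragile site genes. Of the 20 chromatin regulators, 0 were called by edgeR's quasi-likelihood test, with 6 at an unadjusted p under 0.05 and 2 called by DESeq2 (NCOA3 and SMARCA4). Of the 20 signalling genes, 0 were called by edgeR, with 6 at an unadjusted p under 0.05 and 0 called by DESeq2. The 264 regions seen only with shRNF8 that have 1 host gave 222 tested genes, of which 2 were higher and 6 lower (2.70%). The 713 such regions seen only with shScr gave 522, of which 3 were higher and 21 lower (4.02%). Beside these, 1.57% of all genes were lower. The share was 2.48% among hosts of a region found in 2 or more libraries and 3.05% among hosts of a region of all 6.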

How the data were processed

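DRIP-seq peaks of 6 untreated and 6 RNase-treated libraries and RNA-seq counts of 6 libraries were used; input libraries were not analysed here. Per the submitters' processing notes, which give no order or role, the tools were Trim Galore 0.6.6, Bowtie2 2.2.6, STAR 2.7.9a, SAMtools 1.14, Picard 2.10.9, MACS2 2.2.7.1, deepTools 3.5.1, Subread 2.0.1 and featureCounts, on hg38. The authors deposited raw counts per gene with the coordinates of its exons, and 1 peak list per library. Each deposited peak has a fold enrichment over local background and a −log10 p and a −log10 q, as the authors' peak caller gave them; these describe and rank peaks within a list.

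Peaks were placed by summit on the exons of the count table. TPM and intron length were computed from it. Intronic density used genes whose introns have 1 host. Pileup, as a whole number of reads, and local background were recovered from fold and p. For 99.1% to 100% of a library's peaks the recomputed −log10 p was within 0.001 of the deposited one. Depth matching scaled these to the shallowest library and dropped those whose recomputed −log10 p fell under 4. Peaks sharing at least 1 bp were merged into regions, placed by the summit with the highest fold enrichment. Groups were compared by exact permutation over libraries, and classes by exact sign flips within libraries. Genes were tested on the counts with edgeR 4.0.16 (quasi-likelihood, TMM, threshold 0.05) in R 4.3.3, with DESeq2 1.42.0 as an alternative, and the scripts were tested on simulated data. Other steps used Python 3.11.15.

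Regions were named as the 8 of all 6 libraries, the 4 of shRNF8 alone and the 2 of shScr alone with the highest mean fold enrichment. Hosts were named as the 10 with the most recurrent regions, the 5 with the most per Mb among those with at least 3, the hosts of named regions, and the 5 higher and 5 lower called hosts with the smallest p and a mean of at least 5 CPM, and, of each gene list, up to 4 members with the most intronic regions. The members and gene lists were chosen with earlier results of these data known. Some of the genes this rule names are not reported here.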

Additional observations from a re-analysis of the deposited data

Results flagged for a closer look

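Of 23 sets of 4 shRNF8 libraries examined, 2 held a library far from the other 3, and chance alone gives about 1 in 20 such sets. In both it was shRNF8 replicate 1. The KLC2 region had a fold enrichment of 47.0 in that library, beside 26.0, 26.4 and 22.5 in the other shRNF8 libraries, and 19.5 and 23.5 in shScr. The RPS24 region had 36.4, beside 10.5, 13.5 and 9.02 in the other shRNF8 libraries, and 6.999 and 8.15 in shScr.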

How the results depend on the processing

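The comparisons of hairpins changed sign with the libraries and the depth, and none of these values passed a test. The difference in intronic peaks per library, shRNF8 minus shScr, was -82.5 with a −log10 q of at least 5, -1485.75 after depth matching, and -1415 to 3390 with 1 library left out. Numbers 1 and 2 are shared by both hairpins, and with the replicate number as a block the difference in peaks was -4991, in share -0.181 points and in median log2 fold enrichment 0.0369; leaving out shRNF8 3 and 4, an alternative chosen after seeing the data, gave -4991, -0.181 and 0.0369 as well. Depth matching gave 0.00707 for the last. The share retained after RNase differed by -0.156 points with wider margins and -0.0694 after depth matching, and by -0.338 to -0.274 with 1 library left out. Regions of all libraries numbered 1502 with a −log10 q of at least 5, 1032 with no exon touched, 3822 without shRNF8 3 and 4 and 4549 without 1 and 2. Regions of shRNF8 alone numbered 140 of 27665 at that −log10 q, 882 of 35177 without shRNF8 3 and 4, and 5776 of 44197 without 1 and 2. They numbered 363 to 807 with 1 library left out. A rule over fewer libraries is looser. Leaving out 1 library gave differences from gene starts of -0.16 to -0.14 (log2 fold enrichment) and -0.55 to -0.51 (log2 width). The log2 density ratios, whose alternatives were chosen after seeing the data, ran with 1 library left out from 3.39 to 3.51 for host level, 1.58 to 1.75 for distance from the start, 3.27 to 3.59 for span, 2.49 to 2.72 and 1.45 to 1.60 for distance from an exon, and -0.77 to -0.65 for first against later introns. With 5 libraries the sign-flip test cannot go below p = 0.0625 (exact), which ends these calls by construction. In the same order they were 3.72, 1.86, 3.90, 3.08, 1.80 and -0.90 with a −log10 q of at least 5, and 3.42, 1.56, 2.38, -0.74, 1.42 and -0.075 among peaks touching no exon. By RNA-seq, 648 genes and 299 hosts were called without a filter and 859 and 410 with DESeq2, 49 hosts of regions of all 6 libraries were called, and 46 to 3865 genes and 22 to 1711 hosts with 1 library left out. The labels name no pairing of the RNA-seq replicates, and the correlations of deviations between same-numbered samples were -0.05, 0.11 and -0.23. A block on the number gave 501 genes and 213 hosts, against 356 and 166 without it. These values do not settle whether the numbers pair the samples. Using 1 summit per interval changed nothing, as each interval has 1 summit. No cause of these changes was tested.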
